A study of Mus musculus with 11 samples.

Results

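Messenger RNA of 42 genes for integrins, focal adhesion proteins and caveolins was compared between attached and anchorage-independent cultures of mouse JB6 cells. The genes were chosen by symbol. They are genes named as integrin chains (Itga or Itgb followed by numbers or the letters v, x, m, l, d or e) and 20 of 23 listed genes of focal adhesions and caveolae. Itga2b, an integrin alpha chain gene that was also measured, did not match this pattern and is not among the 42. Its group means ran from 6.27 to 6.35. The 42 are part of 12393 genes that had at least 1 probe set naming a single gene. By role they are 13 integrin alpha chains, 9 genes named as beta chains, 2 caveolins, 8 linkers between integrins and actin, and 10 kinases, scaffolds and signalling adaptors. The 3 listed genes without such a probe set were Ptk2, which codes for focal adhesion kinase, Tln2 and Tns3, and they were not analysed here. The symbol pattern also took in Itgbl1 and Itgb2l, relatives of the beta chains, which are counted with them.

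Integrins are pairs of an alpha and a beta chain that span the plasma membrane, bind matrix proteins such as fibronectin, laminin and vitronectin outside the cell, and gather talin, kindlin, paxillin, parvin and kinases into focal adhesions inside it. Signals from these adhesions are part of what attached cells need to grow, and growth without attachment is a classic trait of transformed cells. Caveolins form the coat of caveolae, small pits of the plasma membrane, and caveolin-1 also binds to signalling proteins at adhesions.

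JB6 is a mouse line of epidermal origin used to study tumour promotion. Arrays were made from 4 groups. The bFGF-JB6 groups were cells of the parental clone 41-5A, given basic fibroblast growth factor (bFGF) according to their labels, as a monolayer on 3 arrays and as soft agar colonies on 3 arrays. The RT101 groups were cells of a tumour variant of JB6 that received no treatment, as a monolayer on 2 arrays and as colonies on 3 arrays. Colonies of both kinds were harvested on day 7. The bFGF dose in agar was 10 ng/ml, while dose and duration are not stated for the monolayers. The study asked which colony changes are shared by growth factor driven, reversible anchorage-independent growth and by the irreversible growth of tumour cells. Line and bFGF treatment differ together between the 2 kinds of cells and cannot be told apart. Nothing in the labels says that arrays of one group were grown as separate cultures. The p-values therefore rest on the spread between these arrays alone, and that spread may be technical.

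Values are log2 signals, on which a step of 1 is a 2-fold difference. They can be compared between arrays for 1 gene but not between genes. Each gene was read from its brightest probe set. A gene was said to have risen or fallen, or to be higher or lower, when the Benjamini-Hochberg adjusted p of limma over all 12393 genes was under 0.05. The arrays were close to each other in scale, with medians from 5.82 to 5.95 and lower quartiles from 3.78 to 3.91. In 2 arrays the 3′ probe set of the Gapdh control exceeded the 5′ probe set, by 0.19 in bFGF-JB6 monolayer replicate 1 and by 0.35 in bFGF-JB6 colonies replicate 3. In the other 9 arrays this difference ran from -0.08 to -0.01. Of 10 epidermal keratinocyte markers, 5 (Trp63, Cdh1, Dsp, Epcam and Perp) lay at or below the lower quartile on every array. Of the other markers, Krt14 had group means from 3.61 to 3.80, Krt5 from 4.98 to 5.18, Sfn from 4.39 to 4.59 and Krt10 from 5.08 to 7.35. Krt10 and Krt1 rose in bFGF-JB6 colonies, by 0.54 and 0.36 (adjusted p = 0.00528 and 0.00951). The signal of Krt1 was weak, with group means from 3.49 to 3.85 beside lower quartiles from 3.78 to 3.91. The mean over 11 fibroblast markers ran from 7.90 to 9.04 across the arrays and was lowest, at 7.90, on both RT101 monolayer arrays. Single genes can move this mean. Thy1 and Lum lay at or below the lower quartile on every array, while Dcn group means ran from 4.51 to 10.63. Bulk RNA cannot tell fewer cells of a kind from less RNA per cell.

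In bFGF-JB6 colonies, the laminin receptor chain genes Itga3 and Itga6, both caveolin genes and the paxillin gene Pxn fell, and the beta chain gene Itgb5 rose. Itga3 and Itga6 are 2 of 4 chains listed here as laminin receptors, a list without Itgb1. Of the 42 genes 7 rose, where 14.1% of all genes did, and 12 fell, where 15.3% did. Of these, 1 rose and 5 fell at least 2-fold. In RT101 colonies 9 rose, against 17.0% of all genes, and 5 fell, against 15.4%. Of these, 3 rose at least 2-fold. For neither line is the share of all genes at that size given here. The 7 became 11 without the 2 arrays of raised 3′ signal, and the 5 became 8 without bFGF-JB6 colonies replicate 3, which enters that comparison only through the shared spread. With each array centred on its median, 9 rose and 8 fell in RT101 colonies, and over all genes the share of these calls that were higher went from 52.4% to 40.1%. The median change of the 42 genes was -0.03 in bFGF-JB6 colonies and 0.00 in RT101 colonies, beside 0.03 and -0.01 over all genes. The 2 colony comparisons share no array. Itgb5 and Tns1 rose in both lines, which is 4.76% of the 42 genes beside 5.7% of all genes. Itga3, Itga6 and Pxn fell in both, 7.14% beside 5.21%, though Itga3 passed in RT101 colonies on its brightest probe set only. Cav1, Cav2 and Itgbl1 fell in bFGF-JB6 colonies and rose in RT101 colonies, 7.14% beside 2.85%. Another 11 genes passed the test in bFGF-JB6 colonies alone (26.2%, beside 14% of all genes), 6 in RT101 colonies alone (14.3%, beside 17%) and 17 in neither (40.5%, beside 53.6%), where alone describes the calls and not a tested difference.

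**Figure D1:**
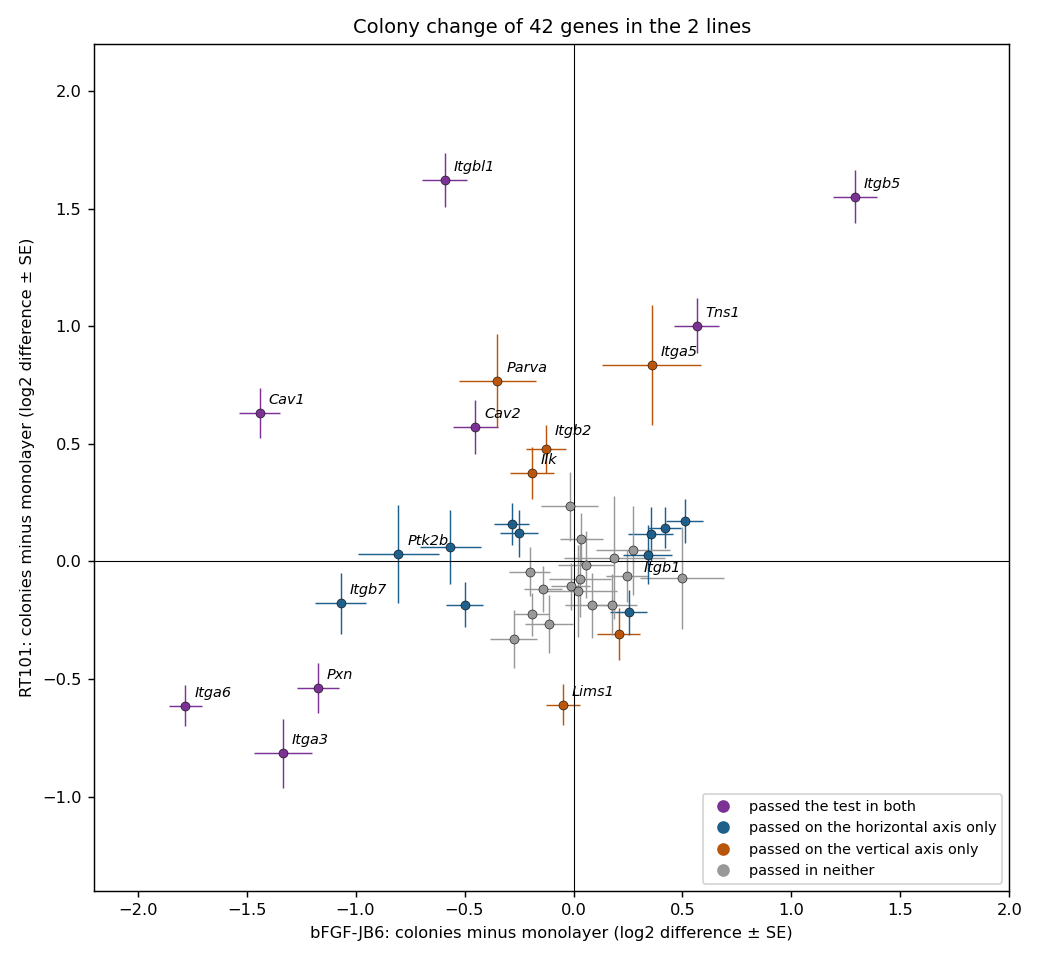
Colony change of each of the 42 genes, as the log2 difference between colonies and monolayer, in bFGF-JB6 cells (horizontal) and in RT101 cells (vertical). Points are estimates from the fit, bars are standard errors, and colours give the test. Itgb5 lies at 1.29 and 1.55 and Itga6 at -1.78 and -0.61, while Cav1 lies at -1.44 and 0.63.

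The most marked decrease among the alpha chains in bFGF-JB6 colonies was that of Itga6, the chain that pairs with beta 4 in hemidesmosomes and with beta 1 elsewhere as a laminin receptor. Its signal was 9.94, 9.93 and 9.97 on the bFGF-JB6 monolayer arrays and 8.18, 8.24 and 8.08 on the colony arrays. In RT101 cells it was 9.21 on both monolayer arrays and 8.60, 8.65 and 8.53 on the colony arrays. In both lines every colony array lay below every monolayer array. The change was -1.78 (SE 0.077, 3.44-fold, adjusted p = 1.83e-09) in bFGF-JB6 colonies and -0.61 (SE 0.086, adjusted p = 8.39e-05) in RT101 colonies. The decrease was smaller in RT101 by 1.17 (SE 0.116, adjusted p = 5.04e-06). RT101 minus bFGF-JB6 was -0.74 in monolayers and 0.43 in colonies, and both passed, so the order of the lines turned on this probe set. A second Itga6 probe set fell in both lines as well, by 1.20 and by 0.71, but differed between the colonies of the lines by only 0.04.

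Itga3 codes for the other main alpha chain of laminin receptors and pairs with beta 1. It read 8.53, 8.23 and 8.23 in bFGF-JB6 monolayers and 7.15, 7.17 and 6.66 in colonies. The RT101 values were 7.39 and 7.31 in monolayers and 6.56, 6.62 and 6.41 in colonies. The groups did not overlap within either line. Itga3 fell by 1.33 (SE 0.133, adjusted p = 5.12e-06) in bFGF-JB6 colonies and by 0.82 (SE 0.149, adjusted p = 6.90e-04) in RT101 colonies. Its 2 other probe sets passed as lower in bFGF-JB6 colonies only. In RT101 colonies they gave -0.43 and -0.55 (adjusted p = 0.0706 and 0.0522, limma over all probe sets). The difference between these changes, 0.52, missed the threshold (adjusted p = 0.0714, 95% interval 0.09 to 0.95). The remaining chains listed here as laminin receptors, Itga7 and Itgb4, were dim and passed in neither colony comparison. Itga7 differed by 0.25 (adjusted p = 0.0791) in bFGF-JB6 colonies, and without bFGF-JB6 monolayer replicate 2 it passed at 0.32 (adjusted p = 0.0372).

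The alpha chain of the fibronectin receptor, Itga5, and its partner Itgb1, the beta chain shared by the largest group of integrins, gave colony values in bFGF-JB6 that rested on 1 array. Itga5 read 8.47, 8.21 and 8.44 in the bFGF-JB6 monolayers and 8.95, 9.23 and 8.02 in the colonies. Itgb1 read 9.60, 9.92 and 10.05 in those monolayers and 10.39, 10.32 and 9.68 in the colonies. For both genes the low colony array was replicate 3, which carried the raised 3′ signal, and for both the groups overlapped. Over all arrays the differences were 0.36 for Itga5 (SE 0.228, adjusted p = 0.278) and 0.27 for Itgb1 (SE 0.169, adjusted p = 0.265). Without that array they were 0.71 (adjusted p = 0.00103) and 0.50 (adjusted p = 0.00981). The part of the raised 3′ signal in these values was not tested.

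In RT101 cells Itga5 read 6.82 and 7.17 in monolayers and 7.96, 7.74 and 7.79 in colonies. It rose by 0.83 (SE 0.254, adjusted p = 0.0214), with no overlap. That call was lost without RT101 monolayer replicate 1 (0.66, adjusted p = 0.181) and without RT101 colonies replicate 1 (0.77, adjusted p = 0.0646). It also missed the threshold with a replicate block from the letters in the sample descriptions (0.76, adjusted p = 0.0521) and with a trended robust variance (adjusted p = 0.0543). Itgb1 read 8.45 and 8.69 in RT101 monolayers and 8.73, 8.53 and 8.60 in colonies. Its difference there was 0.05 (adjusted p = 0.898, 95% interval -0.36 to 0.45), and the groups overlapped.

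Itgb5 codes for the beta chain that pairs with alpha v and binds vitronectin. It was the 1 integrin gene that rose at least 2-fold in both lines. Its signal was 8.69, 8.32 and 8.49 in bFGF-JB6 monolayers against 9.80, 9.82 and 9.74 in colonies. In RT101 it was 8.25 and 8.32 in monolayers against 9.92, 9.88 and 9.70 in colonies. Each colony array was above every monolayer array of its line, and the colony arrays of the 2 lines overlapped. The rise was 1.29 (SE 0.10, 2.45-fold, adjusted p = 5.07e-07) in bFGF-JB6 and 1.55 (SE 0.112, 2.93-fold, adjusted p = 1.82e-07) in RT101. The difference between these was 0.26 (adjusted p = 0.240), with a 95% interval from -0.06 to 0.59. All 4 Itgb5 probe sets rose in both lines, by 0.95 to 1.29 and by 1.34 to 1.55. Between the colonies of the lines the probe sets differed: the brightest gave 0.05, another 0.04, and the remaining pair passed as higher in RT101, at 0.38 (adjusted p = 0.00462) and 0.45 (adjusted p = 0.0131, both over all probe sets).

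Itgav, the alpha partner of Itgb5, read 8.76, 8.56 and 8.56 in bFGF-JB6 monolayers and 8.89, 8.88 and 9.17 in colonies. It rose by 0.35 (SE 0.103, adjusted p = 0.0185). The call was lost without bFGF-JB6 monolayer replicate 2, without monolayer replicate 3 and without colonies replicate 3, with adjusted p-values of 0.0668, 0.0733 and 0.0607, and also with the mean of its probe sets (0.27, adjusted p = 0.329). Its RT101 values were 9.24 and 9.0 in monolayers and 9.22, 9.22 and 9.27 in colonies, a difference of 0.12 that did not pass (adjusted p = 0.511).

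Itga5, Itgb5, Itgav, Itga8, Itgb3 and Itgb6 were listed as chains that bind the RGD motif of matrix proteins. Neither Itgb1, the partner of Itga5, nor Itga2b was on this list, and Itgb1 did not pass in bFGF-JB6 colonies. Of the 6 listed chains, 4 passed as higher there, where 14.1% of all genes did. Besides Itgb5 and Itgav they were Itgb3 at 0.25 (adjusted p = 0.0396) and Itgb6 at 0.34 (adjusted p = 0.0368), both with weak signals. Those calls were lost in 12 and 11 of 21 alternatives, and Itgb6 lay at or below the lower quartile on every array. In RT101 colonies 2 of the 6 rose, Itga5 and Itgb5, beside 17.0% of all genes. The difference between the colony changes of RT101 and bFGF-JB6 passed for Itgb3 alone of these 6, at -0.47 (adjusted p = 0.0142), and not without RT101 monolayer replicate 1 (adjusted p = 0.0756).

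Itgb7 and Itgax are chains known mainly from leukocytes, where beta 7 serves in lymphocyte homing and alpha X on dendritic cells and macrophages. Itgb7 read 8.20, 7.99 and 8.22 in bFGF-JB6 monolayers and 7.19, 7.16 and 6.85 in colonies, and fell by 1.07 (SE 0.115, adjusted p = 1.04e-05). RT101 monolayers gave 5.84 and 5.83 and RT101 colonies 5.61, 5.85 and 5.51, with a difference of -0.18 (adjusted p = 0.349). Its 2 bFGF-JB6 groups were apart and its RT101 groups overlapped. The difference between these changes was 0.89 (SE 0.173, adjusted p = 1.54e-03).

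Itgax read 6.34, 5.95 and 6.0 in bFGF-JB6 monolayers against 5.77, 5.45 and 5.39 in colonies, and fell by 0.56 (SE 0.141, adjusted p = 7.66e-03). Leaving out both arrays with the raised 3′ control ended this call (adjusted p = 0.0934). In RT101 it read 4.08 and 4.10 in monolayers and 4.11, 4.42 and 3.93 in colonies, and those groups overlapped. These RT101 signals of Itgax were weak, beside lower quartiles from 3.78 to 3.91, so sizes that rest on them are not exact. Of 12 leukocyte and macrophage markers, the pan-leukocyte gene Ptprc and the macrophage gene Adgre1 lay at or below the lower quartile on every array, with Ptprc group means from 2.34 to 2.53. Others were brighter or varied, with group means from 3.54 to 8.31 for Cd68, from 3.45 to 6.64 for Coro1a and from 7.30 to 8.69 for Cd14. The mean of the 12 was 4.75 to 4.80 on bFGF-JB6 monolayer arrays, 5.08 to 5.29 on their colony arrays, 4.54 to 4.61 on RT101 monolayer arrays and 4.84 to 4.86 on RT101 colony arrays. This mean was higher on every colony array than on any monolayer array of the same line, but single genes can move it. The median change of the 12 genes was 0.23 in bFGF-JB6 colonies and 0.01 in RT101 colonies. Over all genes it was 0.03 and -0.01. Of the list's genes 4 rose in bFGF-JB6 colonies (beside 14.1% of all genes), namely Cd68 by 1.86, Csf1r by 0.92, Coro1a by 0.63 and Lyz2 by 0.36. In RT101 colonies 3 rose (beside 17.0%), Coro1a by 3.10, Lyz2 by 0.62 and Cd14 by 0.33. The part of these genes in the values of Itgb7 and Itgax was not tested.

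Itgbl1 codes for a protein with repeats like those of integrin beta chains. It read 7.44, 7.41 and 7.42 in bFGF-JB6 monolayers and 6.97, 6.80 and 6.73 in colonies, and decreased by 0.59 (SE 0.103, adjusted p = 6.34e-04). RT101 monolayers gave 3.02 and 2.79, below the lower quartile, and RT101 colonies 4.38, 4.71 and 4.49. The rise there was 1.62 (SE 0.115, adjusted p = 1.57e-07). No groups overlapped, and the difference between the 2 changes was 2.21 (SE 0.154, adjusted p = 2.14e-07). The sizes of the RT101 rise and of this difference rest on the weak RT101 monolayer signals and are not exact.

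Other chains had smaller changes. Itgb2, the common beta chain of leukocyte integrins, rose by 0.48 in RT101 colonies (adjusted p = 2.33e-03). Itga2, a collagen receptor chain, fell there by 0.31 (adjusted p = 0.0487), a call that was lost in 12 of 21 alternatives and stood at -0.18 without RT101 monolayer replicate 1. No beta chain passed as lower in RT101 colonies with limma, and 1, Itgb3, had an unadjusted p under 0.05. The chains Itga4, Itga8, Itgam and Itgb6 lay at or below the lower quartile on every array, and Itgae, Itgb2l and Itgbl1 did so on some.

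**Figure D2:**
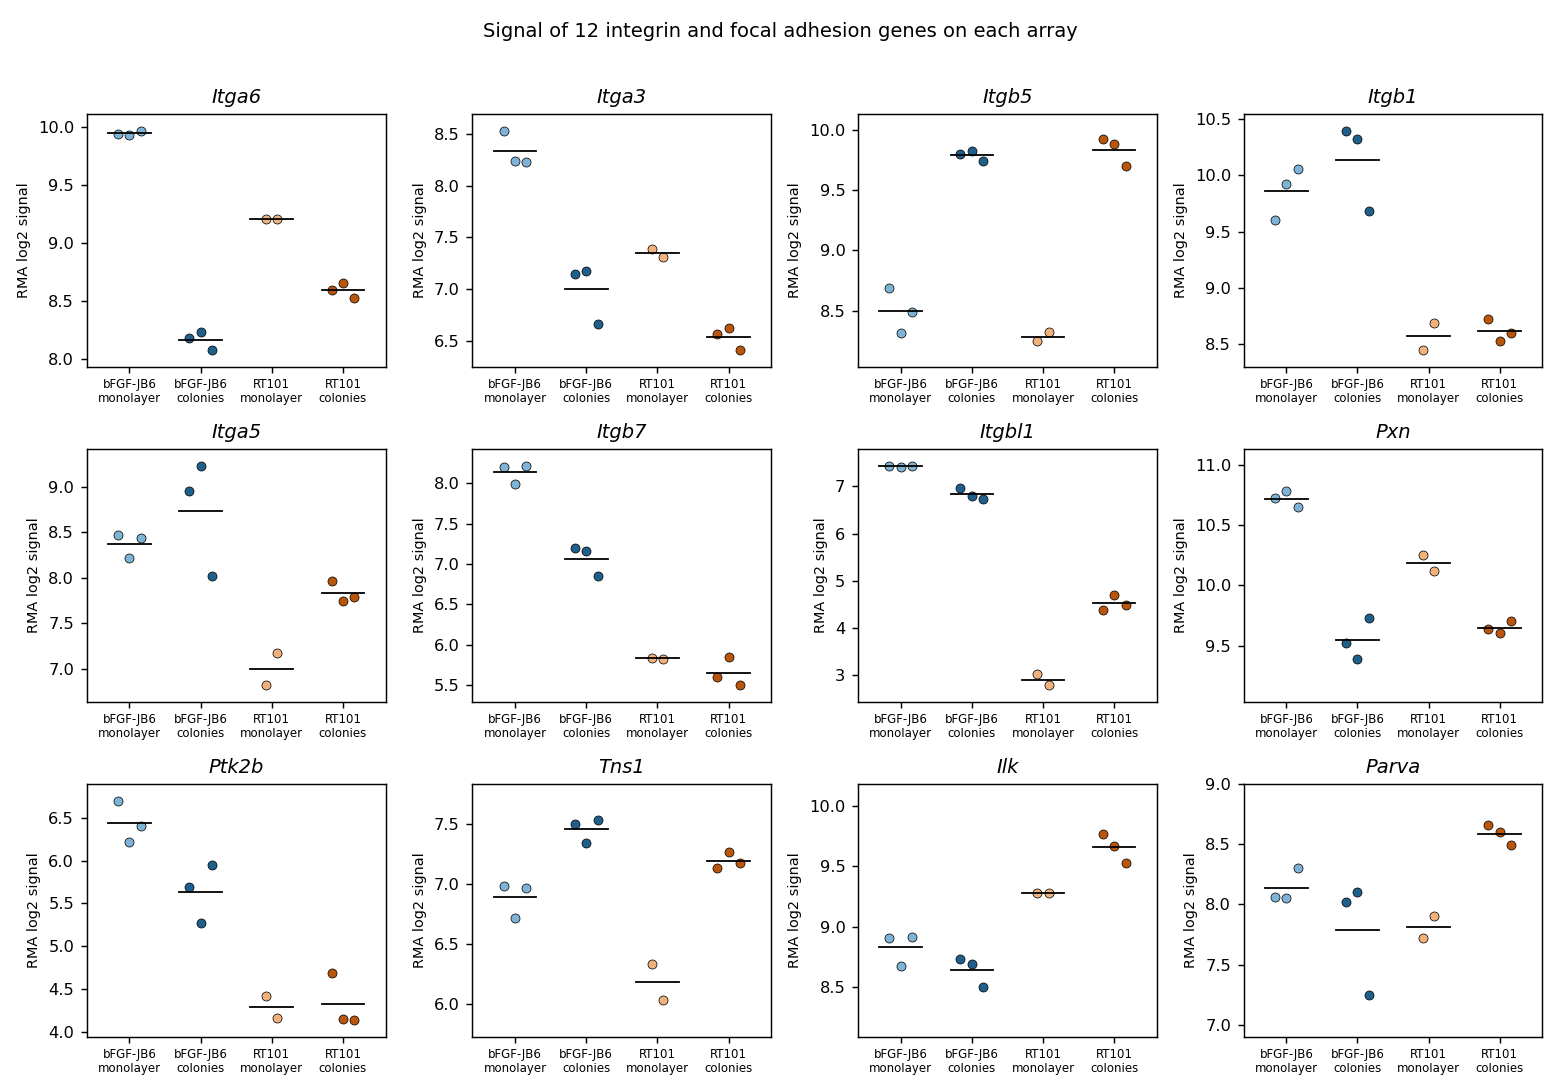
Log2 signal of 12 integrin and focal adhesion genes on each of the 11 arrays, by group. Each point is 1 array and each line is a group mean. Each panel has its own vertical axis that spans at least 2 log2 units. Itga6 and Pxn are lower and Itgb5 is higher in colonies of both lines, and 1 bFGF-JB6 colony array reads 8.02 for Itga5 beside 8.95 and 9.23.

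The caveolins fell in bFGF-JB6 colonies and rose in RT101 colonies. Their genes are neighbours on mouse chromosome 6, and their products form mixed oligomers in caveolae. The 250 bases before the start of Cav2, of the first start of Cav1 and of Itgb5, the integrin gene that rose in both lines, follow as RefSeq gives them on build GRCm38.p6, all on the plus strand. They are chr6:17280935-17281184 for Cav2, chr6:17306085-17306334 for Cav1 and chr16:33829415-33829664 for Itgb5. Capitals mark matches on either strand to TGANTCA, the site of AP-1 (a transcription factor much studied in JB6 transformation), and to GGGCGG, the GC box. GGAATG, the TEAD motif, was also searched and is not in these 3 windows.
Cav2: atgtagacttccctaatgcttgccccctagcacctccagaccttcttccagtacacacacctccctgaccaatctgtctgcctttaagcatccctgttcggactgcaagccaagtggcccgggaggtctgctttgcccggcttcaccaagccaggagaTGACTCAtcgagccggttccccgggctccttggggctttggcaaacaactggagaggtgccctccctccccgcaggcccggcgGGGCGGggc
Cav1: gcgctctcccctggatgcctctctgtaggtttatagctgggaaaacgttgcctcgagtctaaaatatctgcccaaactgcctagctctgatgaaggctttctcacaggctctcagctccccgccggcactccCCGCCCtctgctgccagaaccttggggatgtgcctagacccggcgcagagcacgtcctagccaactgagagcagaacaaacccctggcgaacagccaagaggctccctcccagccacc
Itgb5: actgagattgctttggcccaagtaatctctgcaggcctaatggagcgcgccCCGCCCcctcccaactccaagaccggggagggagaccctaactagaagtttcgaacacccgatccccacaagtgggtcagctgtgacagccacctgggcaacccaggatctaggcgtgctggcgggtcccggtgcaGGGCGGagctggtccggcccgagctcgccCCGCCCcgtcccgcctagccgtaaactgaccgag
Cav2 holds 1 AP-1 match, which begins 92 bases before the start, and 1 GC box. Cav1 holds 1 GC box and Itgb5 holds 3, all counting overlapping matches on both strands. Of 32817 promoter windows of this length, 6.75% hold an AP-1 match, 32.7% a GC box and 12.6% a TEAD motif. Of 42 windows of 31 of the genes studied here, the counts were 2, 26 and 1. A match is a description of these letters and not a measured site.

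Cav1 read 9.56, 9.66 and 9.60 in bFGF-JB6 monolayers and 8.21, 7.97 and 8.31 in colonies. The RT101 signals were 11.02 and 11.10 in monolayers and 11.62, 11.77 and 11.70 in colonies. The 4 groups did not overlap at all, with bFGF-JB6 colonies lowest and RT101 colonies highest. Cav1 fell by 1.44 (SE 0.094, 2.71-fold, adjusted p = 9.50e-08) in bFGF-JB6 colonies and rose by 0.63 (SE 0.105, adjusted p = 3.39e-04) in RT101 colonies. The difference between the changes was 2.07 (SE 0.141, adjusted p = 1.68e-07).

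Cav2 read 9.90, 10.05 and 10.03 in bFGF-JB6 monolayers and 9.41, 9.43 and 9.79 in colonies. Those of RT101 were 9.59 and 9.49 in monolayers and 10.07, 10.18 and 10.09 in colonies. Within each line the groups were apart, but the span of Cav2 over all groups was narrower than that of Cav1. Cav2 fell by 0.45 (SE 0.103, adjusted p = 4.60e-03) in the first line and rose by 0.57 (SE 0.116, adjusted p = 1.54e-03) in the other, and the difference was 1.02 (SE 0.155, adjusted p = 2.21e-04). With the mean of its 2 probe sets both colony calls were lost, at -0.19 (adjusted p = 0.137) and 0.23 (adjusted p = 0.101). The second probe set was dim, with a mean of 4.37.

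Caveola genes outside the 42 were read as well, 6 of 10 listed names having a probe set (3 of the 10 are older names of the cavins). Cavin2, a coat protein that helps to bend the membrane, read 9.64, 9.55 and 9.61 in bFGF-JB6 monolayers and 7.01, 6.80 and 7.46 in colonies, and fell by 2.51 (adjusted p = 1.06e-08). Cavin2 in RT101 was 10.68 and 10.60 in monolayers and 10.21, 10.21 and 10.26 in colonies. It passed there as lower, at -0.41 (adjusted p = 0.0447), a call lost in 10 of 22 alternatives. The difference between the changes was 2.10 (adjusted p = 2.77e-06), so Cavin2 fell further in bFGF-JB6 colonies, as Cav1 did, without the rise of Cav1 in RT101 colonies.

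Cavin3 rose in both lines, by 0.43 (adjusted p = 2.30e-03) and 0.73 (adjusted p = 6.04e-05). Ehd2, an ATPase at the neck of caveolae, rose by 0.76 in RT101 colonies (adjusted p = 2.14e-04). Cavin1, the coat protein that all caveolae need, passed in neither colony comparison and varied widely between the bFGF-JB6 monolayer arrays, with 8.31 on the array of raised 3′ signal beside 6.37 and 6.94. Across the 11 arrays, the genes most like Cav1 among 2070 with an SD of at least 0.5 were Qars, Lage3, Rasa2, Gpsm2 and Pstk, with Pearson r from 0.987 to 0.995. These points share lines and groups, so the correlations only describe the order of 4 groups. Over the same arrays r with Cav1 was 0.53 for Cav2 and 0.93 for Ilk.

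**Figure D3:**
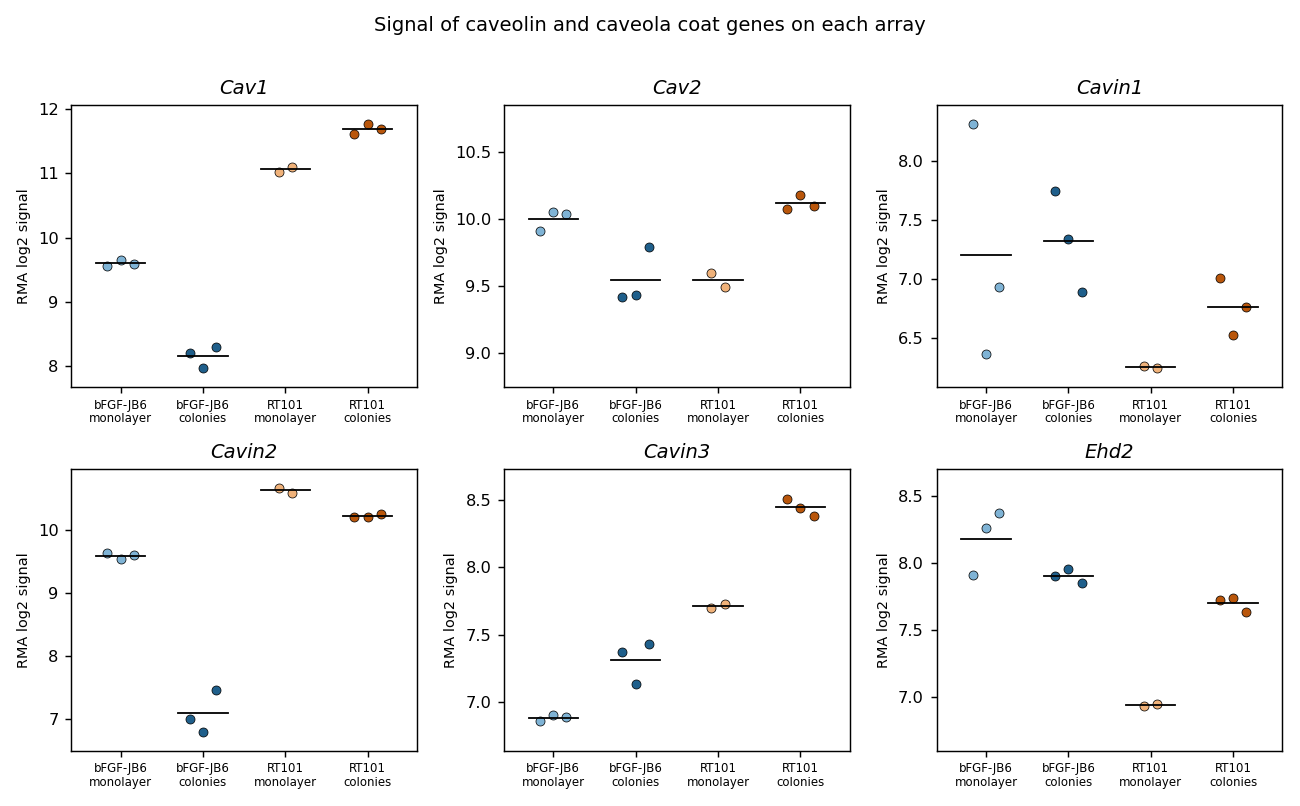
Log2 signal of Cav1, Cav2 and 4 other caveola genes (3 cavins and Ehd2) on each of the 11 arrays, by group. Points are arrays and lines are group means, with a vertical axis for each gene. Cav1 and Cavin2 are lowest in bFGF-JB6 colonies, at 7.97 to 8.31 and 6.80 to 7.46.

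Of the 8 linkers between integrins and actin, 3 rose in bFGF-JB6 colonies, where 14.1% of all genes did. In RT101 colonies 3 rose and 1 fell, beside 17.0% and 15.4% of all genes. In the first comparison limma called none lower, and 1, Tln1, had an unadjusted p under 0.05. Tln1 also missed the threshold in RT101 colonies, but passed there as lower in 12 of 22 alternatives. Its second, dim probe set fell in RT101 colonies by 1.13 (adjusted p = 9.68e-06, limma over all probe sets). Tns1 codes for tensin 1, which ties beta chains to actin. It read 6.99, 6.72 and 6.96 in bFGF-JB6 monolayers and 7.50, 7.34 and 7.53 in colonies. In RT101 it read 6.34 and 6.04 in monolayers and 7.13, 7.26 and 7.17 in colonies. No groups overlapped within a line, and Tns1 rose by 0.56 (SE 0.104, adjusted p = 1.0e-03) and by 1.0 (SE 0.117, adjusted p = 1.60e-05). The difference of 0.44 missed the threshold (adjusted p = 0.0539). Fermt2, the kindlin that activates integrins together with talin, and Rsu1, which binds the Lims1 protein, rose in bFGF-JB6 colonies by 0.51 (adjusted p = 3.78e-04) and 0.42 (adjusted p = 9.64e-04). The second Fermt2 probe set, with a mean of 7.58, did not pass there (0.34, adjusted p = 0.116, limma over all probe sets).

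Ilk, Lims1 and Parva code for the 3 proteins of one complex, integrin-linked kinase, PINCH1 and alpha-parvin, and in RT101 colonies the first and the last rose while Lims1 fell. Ilk read 9.28 on both RT101 monolayer arrays and 9.77, 9.67 and 9.53 on the colony arrays, a rise of 0.38 (SE 0.111, adjusted p = 0.0182). That call was lost without either RT101 monolayer array (adjusted p = 0.0872 without replicate 1 and 0.0820 without replicate 2) and without RT101 colonies replicate 1 or 2 (0.0728 and 0.0514). In bFGF-JB6 Ilk read 8.91, 8.67 and 8.91 in monolayers and 8.73, 8.69 and 8.50 in colonies, where the groups overlapped and the difference of -0.19 did not pass (adjusted p = 0.182).

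Parva read 7.72 and 7.91 in RT101 monolayers and 8.66, 8.60 and 8.49 in colonies, and rose by 0.77 (adjusted p = 7.67e-03), a call lost without RT101 monolayer replicate 1 (adjusted p = 0.0783). In bFGF-JB6 it read 8.06, 8.05 and 8.30 in monolayers and 8.02, 8.10 and 7.25 in colonies, with the low value on the array of raised 3′ signal, and did not pass (-0.35, adjusted p = 0.165). Lims1 fell by 0.61 in RT101 colonies (adjusted p = 9.46e-05) and differed by -0.05 in bFGF-JB6 colonies (adjusted p = 0.700). Its second probe set, with a mean of 8.10, fell in both lines, by 0.91 in RT101 colonies (adjusted p = 4.94e-05) and by 0.52 in bFGF-JB6 colonies (adjusted p = 0.00181, over all probe sets). The differences between the lines' changes passed for all 3 genes, at 0.57 for Ilk, 1.12 for Parva and -0.56 for Lims1, though not for the second Lims1 probe set (-0.39, adjusted p = 0.0772). Parvb, the beta-parvin gene, passed in no comparison, but without bFGF-JB6 colonies replicate 3 it rose by 0.57 in bFGF-JB6 colonies (adjusted p = 1.01e-03).

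Among the 10 kinases, scaffolds and adaptors 5 fell in bFGF-JB6 colonies, beside 15.3% of all genes. In RT101 colonies 1, Pxn, fell (10%, beside 15.4% of all genes). In bFGF-JB6 colonies limma called none higher and 1, Git1, had an unadjusted p under 0.05. Pxn codes for paxillin, the scaffold on which focal adhesion kinase and Crk meet. It read 10.73, 10.78 and 10.65 in bFGF-JB6 monolayers and 9.52, 9.39 and 9.73 in colonies. RT101 arrays gave 10.25 and 10.12 in monolayers and 9.64, 9.60 and 9.70 in colonies. The groups were apart in both lines. Pxn fell by 1.17 (SE 0.095, 2.25-fold, adjusted p = 7.69e-07) and by 0.54 (SE 0.107, adjusted p = 1.38e-03). The difference of 0.64 passed (adjusted p = 4.21e-03). Between the colonies of the 2 lines Pxn did not pass (0.10, adjusted p = 0.447), though its second probe set did (-0.34, adjusted p = 6.0e-03).

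Ptk2b codes for Pyk2, the relative of focal adhesion kinase. It read 6.71, 6.22 and 6.40 in bFGF-JB6 monolayers and 5.69, 5.27 and 5.95 in colonies, and fell by 0.80 (SE 0.187, adjusted p = 4.92e-03). The RT101 arrays gave 4.42 and 4.16 in monolayers and 4.68, 4.14 and 4.14 in colonies, groups that overlapped (0.03, adjusted p = 0.941). These RT101 signals were weak, beside lower quartiles from 3.78 to 3.91, so sizes that rest on them are not exact. The difference between the changes was 0.83 (adjusted p = 0.0404), a call lost in 9 of 20 alternatives, among them leaving out either RT101 monolayer array (adjusted p = 0.0558 and 0.152).

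The adaptor genes Crkl and Bcar1 (which codes for p130Cas) fell in bFGF-JB6 colonies by 0.50 (adjusted p = 5.78e-04) and 0.28 (adjusted p = 0.0159), and Arhgef7, an exchange factor for Rac, by 0.25 (adjusted p = 0.0493). Those calls were lost in 1, 4 and 14 of 22 alternatives. Git1, the partner of Arhgef7, read 7.54, 6.97 and 6.96 in bFGF-JB6 monolayers and 7.80, 7.98 and 7.18 in colonies, a difference of 0.50 that did not pass (adjusted p = 0.0695). Without colonies replicate 3 it was 0.73 (adjusted p = 3.83e-03).

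Src, the tyrosine kinase that joins focal adhesion kinase, read 7.49, 6.99 and 6.77 in bFGF-JB6 monolayers and 7.32, 7.27 and 6.72 in colonies. In RT101 it read 6.79 and 6.69 in monolayers and 6.61, 6.72 and 6.52 in colonies. The groups overlapped in both lines, with differences of 0.02 (adjusted p = 0.944, 95% interval -0.36 to 0.40) and -0.13 (adjusted p = 0.709). Without the 2 arrays of raised 3′ signal, 1 in each bFGF-JB6 group, Src passed as higher by 0.41 in bFGF-JB6 colonies (adjusted p = 0.0106).

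The colony change itself was compared between the lines. It was more positive in RT101 for 12 of the 42 genes, where 15.0% of all genes passed in that direction, and more negative for 3, where 12.7% did. At least a 2-fold difference was reached by 5 of the 12, namely Itgbl1, Cav1, Itga6, Parva and Cav2. The share of all genes at that size is not given here. The 3 with a more negative change were Itgb3, Itga2 and Lims1. The median of this difference was 0.04 over the 42 genes and -0.04 over all genes. With each array centred on its median the counts were 10 and 6, and over all genes the share of these calls that were higher went from 54.1% to 43.5%. The count of 3 was 1 without RT101 monolayer replicate 1 and 5 without bFGF-JB6 colonies replicate 3.

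RT101 and bFGF-JB6 were also compared directly, in monolayers and in colonies, which reuse the same arrays as the colony comparisons. In monolayers 8 of the 42 genes were higher in RT101, against 23.2% of all genes, and 17 were lower, against 21.2%. In colonies 11 were higher, against 22.7%, and 15 lower, against 20.7%. The medians were -0.16 and -0.14, beside 0.05 and 0.00 over all genes. No beta chain was called higher in RT101 in either setting with limma, and 0 of the 9 had an unadjusted p under 0.05 in that direction. In monolayers 5 of the 9 were lower.

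Several integrin chains read lower in RT101 in both settings. Itgbl1 differed by -2.31 in colonies (adjusted p = 6.55e-10) and was lower in monolayers as well (adjusted p = 2.43e-12). Its RT101 monolayer signals of 3.02 and 2.79 lay below the lower quartile of every array, so the fitted -4.52 there is not a measured size. Itgb7 differed by -2.30 (adjusted p = 6.21e-09) and -1.41 (adjusted p = 2.51e-07), and Itgax by -2.01 (adjusted p = 1.66e-07) and -1.38 (adjusted p = 2.23e-06). The RT101 signals of Itgax were weak, so its sizes are not exact. Itgb1 differed by -1.29 in monolayers (SE 0.189, adjusted p = 6.55e-05) and by -1.51 in colonies (SE 0.169, adjusted p = 5.30e-06). Its second probe set gave -1.23 and -1.44. Itga5 differed by -1.38 (adjusted p = 4.69e-04) and -0.90 (adjusted p = 4.93e-03), so both chains of the fibronectin receptor were lower in RT101. Neither chain overlapped between the lines in monolayers or in colonies. The second Itga5 probe set did not pass in colonies (-0.65, adjusted p = 0.102 with limma over all probe sets). Itgb5 did not pass in either setting, at -0.21 (95% interval -0.46 to 0.03) and 0.05 (-0.17 to 0.26), but 2 of its 3 other probe sets passed as higher in RT101 colonies, as given above.

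Cav1 stood out in the other direction. It was higher in RT101 by 1.46 in monolayers (SE 0.105, 2.75-fold, adjusted p = 7.42e-08) and by 3.53 in colonies (SE 0.094, 11.5-fold, adjusted p = 3.49e-12). Rap1a, a small GTPase that switches integrins on, was higher by 0.81 (adjusted p = 8.76e-05) and 0.65 (adjusted p = 2.14e-04), and Ilk by 0.45 (adjusted p = 4.07e-03) and 1.02 (adjusted p = 1.48e-06). The second Rap1a probe set passed in neither setting, at 0.41 in monolayers and 0.06 in colonies (adjusted p = 0.0629 and 0.784, limma over all probe sets). Cav2 was lower in RT101 monolayers, at -0.45 (adjusted p = 5.21e-03), and higher in RT101 colonies, at 0.57 (adjusted p = 4.25e-04). The monolayer call of Cav2 was lost without RT101 monolayer replicate 2 (adjusted p = 0.0522) and with the mean of its probe sets (adjusted p = 0.235).

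Among signalling genes, Ptk2b was lower in RT101, at -2.15 in monolayers (adjusted p = 1.34e-06) and -1.32 in colonies (adjusted p = 4.96e-05). Its RT101 signals were weak, so these sizes are not exact. The exchange factor gene Arhgef7 was lower too, at -1.16 (adjusted p = 3.76e-07) and -0.79 (adjusted p = 5.36e-06), as was its partner Git1, at -0.64 (adjusted p = 0.0258) and -1.21 (adjusted p = 1.37e-04). The monolayer call of Git1 was lost without bFGF-JB6 monolayer replicate 1 (-0.45, adjusted p = 0.106) and without RT101 monolayer replicate 1 or 2 (0.119 and 0.0826). Src was lower in RT101 colonies, at -0.49 (adjusted p = 0.0367). That call was lost without any 1 of 5 colony arrays, bFGF-JB6 replicates 1 and 2 and RT101 replicates 1, 2 and 3, with adjusted p-values from 0.0505 to 0.135. Tln1, which codes for talin 1, was lower in RT101 monolayers, at -0.36 (adjusted p = 0.0283). That call was lost with median centring (-0.27, adjusted p = 0.0726), without bFGF-JB6 monolayer replicate 1 (-0.27, adjusted p = 0.106) and without RT101 monolayer replicate 1 or 2 (0.0899 and 0.119). The second, dim probe set of Tln1 differed by 1.30 the other way. It was the 1 gene of the 42 whose probe sets were called in opposite directions in a comparison.

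**Figure D4:**
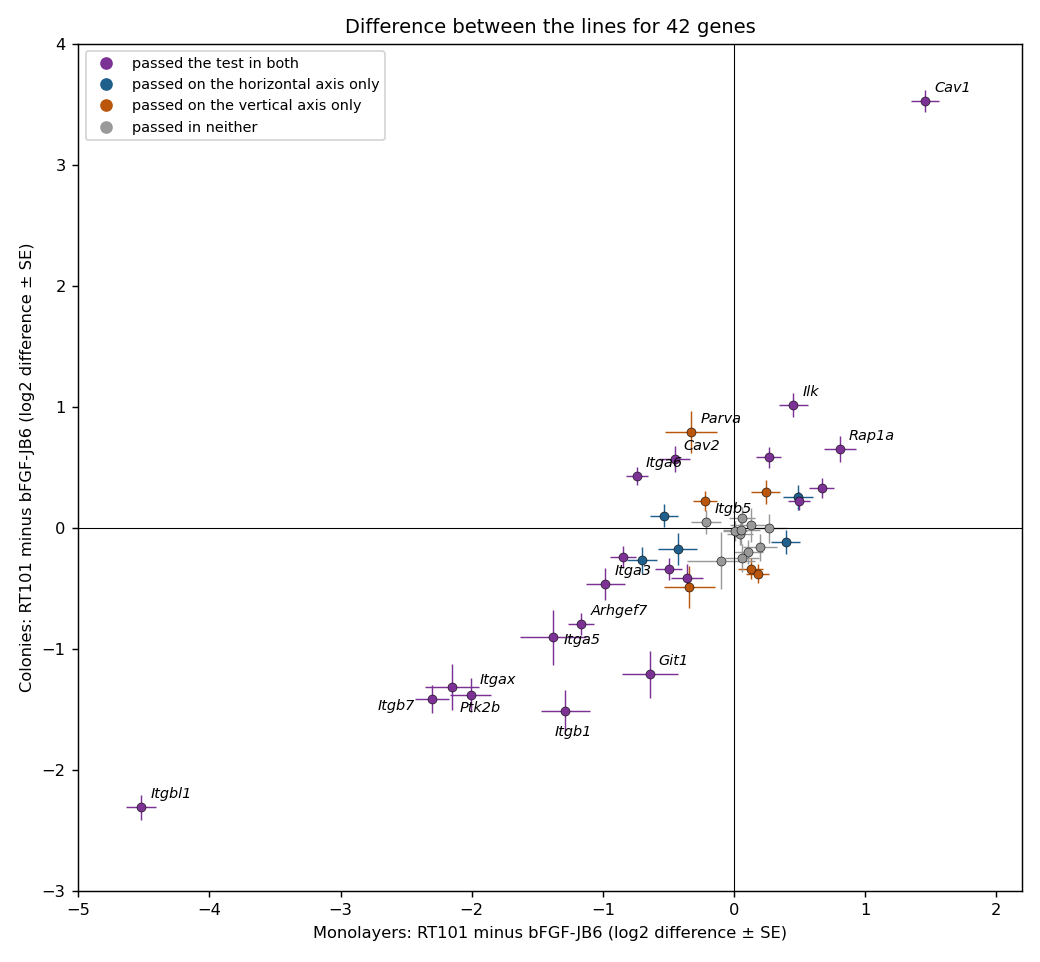
Difference between RT101 and bFGF-JB6 for each of the 42 genes, as log2 differences in monolayers (horizontal) and in colonies (vertical), with standard errors. Positive values are higher in RT101 and colours give the test. Cav1 lies at 1.46 and 3.53 and Itgb7 at -2.30 and -1.41. Itgbl1 lies farthest left, at a fitted -4.52 that rests on RT101 signals below the lower quartile. The axes share no array.

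Over the 5 comparisons 33 of the 42 genes passed in at least 1 (78.6%, beside 62.2% of all genes). Cav1, Cav2, Itga6 and Itgbl1 passed in all 5 (9.52%, beside 4.83%). The 9 that passed in none were Git2, Itga4, Itga7, Itga8, Itga9, Itgal, Itgam, Itgb2l and Parvb.

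Genes that work with the 42 were read from lists. Among 20 integrin ligands 4 rose and 1 fell in bFGF-JB6 colonies (20% and 5%, beside 14.1% and 15.3% of all genes), and 6 rose in RT101 colonies (30%, beside 17.0%). Fn1, the fibronectin gene, rose by 0.92 (adjusted p = 2.35e-06) and 1.25 (adjusted p = 2.73e-07), and Vcam1, a ligand of alpha 4 integrins, by 1.33 (adjusted p = 4.41e-07) and 0.97 (adjusted p = 1.78e-05). Tnc, the tenascin C gene, fell by 1.25 in bFGF-JB6 colonies (adjusted p = 2.44e-07) and rose by 1.52 in RT101 colonies (adjusted p = 9.0e-08), a difference of 2.76 (adjusted p = 1.06e-08). Lamc1 rose in both lines, by 0.61 and 0.50, and Col4a1 rose by 1.24 in RT101 colonies (adjusted p = 2.58e-06).

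Of 6 hemidesmosome genes, which serve the alpha 6 beta 4 integrin, 4 fell in bFGF-JB6 colonies (66.7%, beside 15.3% of all genes) and 1 in RT101 colonies (16.7%, beside 15.4%). Dst fell by 0.91 (adjusted p = 2.64e-04) and 1.22 (adjusted p = 4.15e-05), and Plec, the plectin gene, by 0.87 in bFGF-JB6 colonies (adjusted p = 1.16e-05). Col17a1 passed there at -0.50 but lay at or below the lower quartile on every array. The call of Cd151 (-0.37, adjusted p = 0.0394) was lost in 14 of 22 alternatives. Cd151 is also on the list of membrane partners below, so the same call enters both counts. Lama3, another gene of this list, lay at or below the lower quartile on every array.

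Of 14 membrane partners of integrins 3 rose and 3 fell in bFGF-JB6 colonies (21.4% each, beside 14.1% and 15.3% of all genes). In RT101 colonies 7 rose and 2 fell (50% and 14.3%, beside 17.0% and 15.4%). In RT101 colonies Plaur, the urokinase receptor gene, fell by 1.90 (adjusted p = 3.39e-08), and the tetraspanin genes Cd82 and Cd9 rose by 1.74 (adjusted p = 6.78e-08) and 1.62 (adjusted p = 1.08e-06). Slc3a2, the heavy chain CD98 that binds beta chains, rose by 0.61 in bFGF-JB6 colonies (adjusted p = 2.10e-04) and fell by 1.45 in RT101 colonies (adjusted p = 1.55e-07). Cd47, which associates with alpha v beta 3, did the reverse, at -0.59 (adjusted p = 5.66e-05) and 0.71 (adjusted p = 2.36e-05).

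Of 29 further focal adhesion adaptors and regulators 3 rose and 4 fell in bFGF-JB6 colonies (10.3% and 13.8%, beside 14.1% and 15.3% of all genes). In RT101 colonies 5 rose and 6 fell (17.2% and 20.7%, beside 17.0% and 15.4%). These shares are near those of all genes. Nck2, an adaptor that binds Lims1, rose in both, by 0.61 (adjusted p = 1.42e-04) and 1.18 (adjusted p = 7.66e-07). Fblim1 and Kank2 fell in bFGF-JB6 colonies by 0.86 (adjusted p = 2.82e-05) and 0.74 (adjusted p = 5.52e-05). In RT101 colonies Flna, the filamin A gene, fell by 1.06 (adjusted p = 9.30e-05) and the kinase gene Fyn by 1.02 (adjusted p = 1.25e-05).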

How the data were processed

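Biotin-labelled cRNA of 11 samples was measured on Affymetrix arrays, per the labels' protocols. The deposited values are log2 signals from RMA (the submitters' processing notes name it without a version). RMA sets the arrays to one distribution and compresses folds of weak signals. Groups came from titles and source names.

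The platform annotation gave 1 gene symbol for 20380 of 22690 probe sets (several for 691, none for 1555, with 64 controls besides), and 20351 of them matched the reference gene table by gene number. The 42 genes have 82 probe sets, and 23 genes have more than 1. One limma 3.58.1 model (R 4.3.3) with group as its only term was fitted to 12393 genes, each read from its brightest probe set over all arrays, with eBayes (7 residual and 6.12 prior degrees of freedom). The procedure was tested on simulated data. Alternatives were other scalings, probe set rules, variance models, a level filter, a replicate block and leaving out arrays. Promoter sequences are RefSeq's. Figures were drawn with matplotlib.

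The genes and lists were chosen with earlier results of these data known. Values on every array are given for genes called at least 2-fold in a colony comparison, the 6 with the largest called difference between lines, and Itgb1, Itgav, Itga5, Src, Ilk, Pxn, Cav1 and Cav2. Of each companion list up to 4 called genes per colony comparison are named. Parva, Git1 and the caveola coat genes were shown by array after their values were seen.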

Additional observations from a re-analysis of the deposited data

Results flagged for a closer look

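For 15 of the 42 genes the colony change in RT101 cells minus that in bFGF-JB6 cells passed limma's test. It was more positive in RT101 for 12, where 15.0% of all genes passed, and more negative for 3, where 12.7% did. The difference was 2.21 for Itgbl1 and 2.07 for Cav1, which fell in bFGF-JB6 colonies and rose in RT101 colonies. It was 1.17 for Itga6, 1.12 for Parva, 1.02 for Cav2 and 0.89 for Itgb7. It was 0.83 for Ptk2b, 0.64 for Pxn, 0.63 for Itgax, 0.60 for Itgb2, 0.57 for Ilk and 0.44 for Bcar1. The sizes for Itgbl1, Ptk2b and Itgax rest on weak RT101 signals and are not exact. The 3 negative differences were -0.47 for Itgb3, -0.52 for Itga2 and -0.56 for Lims1. Some of these calls were lost in alternatives, Itgax in 13 of 20, Ptk2b in 9 of 20, Itga2 in 2, Itgb3 in 2 and Bcar1 in 1. Without RT101 monolayer replicate 1 the adjusted p was 0.116 for Itgax, 0.0558 for Ptk2b, 0.123 for Itga2 and 0.0756 for Itgb3, and without bFGF-JB6 monolayer replicate 3 it was 0.0529 for Itga2. Groups of 2 or 3 arrays are too small for a test of a single outlying array.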

How the results depend on the processing

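Of 99 calls on the 42 genes over the 5 comparisons, 84 to 95 kept direction and call under each alternative that tested all of them, and Tln1 alone turned and was called the other way (0.47 in RT101 against bFGF-JB6 monolayers with the mean of its probe sets). Counts that moved by more than 1.5 times were these. Genes higher in bFGF-JB6 colonies numbered 11 without the 2 arrays of raised 3′ signal. Genes lower in RT101 colonies numbered 8 with median centring, 9 with array weights, 8 with only the groups compared, and 4 to 8 when arrays were left out in turn. Genes with a more negative change in RT101 numbered 5 with a replicate block (letters in the descriptions), 5 with the mean of probe sets, 6 with median centring, 6 without the 2 arrays, and 1 to 5 when arrays were left out in turn.

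Differences near 0 that were not called changed sign, and none was called after the turn. With a replicate block from the letters Itgax gave -0.0115 and Ptk2b -0.0815 in RT101 colonies, and with the block from the title numbers Src gave 0.0050 there. In RT101 colonies median centring gave -0.0278 for Itgax, -0.0413 for Itgb1 and -0.0570 for Ptk2b, and array weights gave -0.0230 for Ptk2b. Between colonies of the lines cyclic loess gave -0.00502 for Itgb5, and the mean of probe sets gave -0.15 for Pxn. When arrays were left out in turn Src ran from -0.13 to 0.22 in bFGF-JB6 colonies and its difference between the lines from -0.35 to 0.0056, while in RT101 colonies Itgav ran from -0.00096 to 0.24, Itgax from -0.0705 to 0.17, Itgb1 from -0.0732 to 0.17 and Ptk2b from -0.15 to 0.16.

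Within a line, deviations of arrays with the same title number correlated at -0.253 to 0.0763, and those with the same letter at -0.245 to 0.15. Deviations from means of 2 or 3 arrays cannot show whether such arrays share a culture or a batch. The replicate block kept 94 (numbers) and 93 (letters) of 99 calls. Precision is limited by 2 or 3 arrays per group, and weak signals are compressed.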
